A study of Mus musculus with 12 samples.

Results

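The synaptic vesicle and release machinery comprises the proteins that hold transmitter vesicles ready at the presynaptic membrane and fuse them when calcium enters. Rows of the deposited gene table were taken as members when their name was that of a synaptotagmin, Doc2 protein, complexin, synapsin, SV2 protein, VAMP, syntaxin, syntaxin-binding protein, RIM, Munc13 protein, Rab3 GTPase, synaptogyrin, Snap25, Syp, Bsn or Pclo. A mean of at least 10 counts over the 12 libraries was also required. Of 57073 gene models, 77 had such a name and 74 reached the count minimum. Just inside it lay Stx11 with a mean of 13.9 counts and Doc2a with 18.7, and outside it lay Syngr4 with 3.92, Stx19 with 2.75 and Syt8 with 1.42. The rule itself uses names and mean counts, not differences between groups. Stx11, however, reached the minimum only through its counts in 1 of the groups, as given below.

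RNA was measured in retina of C57BL/6 mice at postnatal day 17. The 6 OIR libraries came from mice with oxygen-induced retinopathy, for which the labels give 75% oxygen, and the 6 normoxic libraries from mice kept in normoxic air. In this model, high oxygen closes capillaries of the young retina, and once the pups breathe room air again the tissue without vessels becomes hypoxic and abnormal vessels sprout. Total counts ranged from 17366045 to 21594618 in OIR libraries and from 17361979 to 19390627 in normoxic libraries. Nothing in the labels says that each library is a separate animal, so the p-values measure the spread between libraries, which may be partly technical. Neither the timing of the oxygen nor any pooling is given in the labels. The normoxic libraries fell into 2 sets, replicates 1 to 3 and 4 to 6. The chi-square per degree of freedom between the counts of 2 normoxic libraries, which sampling noise alone would hold near 1, was 3.05 to 4.08 within a set and 11.98 to 15.4 across the sets. In OIR libraries it was 3.98 to 8.07 within a set and 4.76 to 12.2 across. The labels name no batch for these numbers, so a fold change over all 12 libraries averages over normoxic libraries that differ.

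Markers of other tissues differed between the sets too (FPKM is fragments per kilobase of gene, scaled by depth). Pigment epithelium markers passed in 0 of 3 genes over all libraries, but 3 of 3 were higher within replicates 1 to 3, summing to 24.8 to 32.5 FPKM in OIR and 5.91 to 7.13 FPKM in normoxic libraries. Within replicates 4 to 6, 1 was lower, with sums of 39.1 to 57.3 FPKM in OIR and 55.9 to 62.9 FPKM in normoxic libraries. Lens markers were lower in 3 of 3 over all libraries and within replicates 1 to 3 (0.281 to 0.992 FPKM in OIR, 1.94 to 15.4 FPKM in normoxic libraries). None passed within replicates 4 to 6 (0.286 to 4.25 FPKM in OIR, 2.75 to 4.33 FPKM in normoxic libraries). Red cell markers were higher in 3 of 3 in both sets. The part of these tissues in the members' results was not tested.

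Vesicles fuse when the SNARE proteins Snap25, syntaxin and VAMP zip together, with Munc18 and Munc13 proteins preparing the complex, complexins clamping it and synaptotagmins sensing calcium. The retina uses this machinery in more than one form. Photoreceptors and bipolar cells release glutamate continuously from ribbon synapses, which carry complexins 3 and 4 and syntaxin 3 and lack synapsins, whereas amacrine cells make conventional synapses with complexins 1 and 2 and synapsins.

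In OIR retinas, 33 of the 74 members fell and 8 rose, while 33 did not pass the test. The test was edgeR's quasi-likelihood test with Benjamini-Hochberg adjustment over all 18275 tested genes, and an adjusted p under 0.05 counted as a call. Members were called in 55.4% of cases, against 31.0% of all tested genes. Lower calls made up 44.6% of the members against 14.8% of all tested genes, and higher calls 10.8% against 16.2%. The median log2 fold change (OIR minus normoxic) was -0.16 over the members and -0.01 over all tested genes. Of the 74 log2 fold changes, 31 lay within 0.2 of 0, and 2 called members, Vamp5 and Stx11, changed at least 2-fold. Stx11 is 1 of the 8 that rose and is a member only through its OIR counts. Together the members took 1.10% to 1.18% of all counts in OIR libraries and 1.24% to 1.29% in normoxic libraries, ranges that did not overlap. FPKM values of the 6 OIR libraries all lay below those of the 6 normoxic libraries in 20 members and all above them in 5, where 7.31% and 9.12% of all tested genes did so. These 25 members are 33.8% of the 74, where 16.4% of all tested genes had groups that did not overlap. Of the 41 calls, 37 were kept when any 1 of the 12 libraries was left out, the exceptions being Doc2g, Stxbp2, Unc13d and Stx2.

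**Figure D1:**
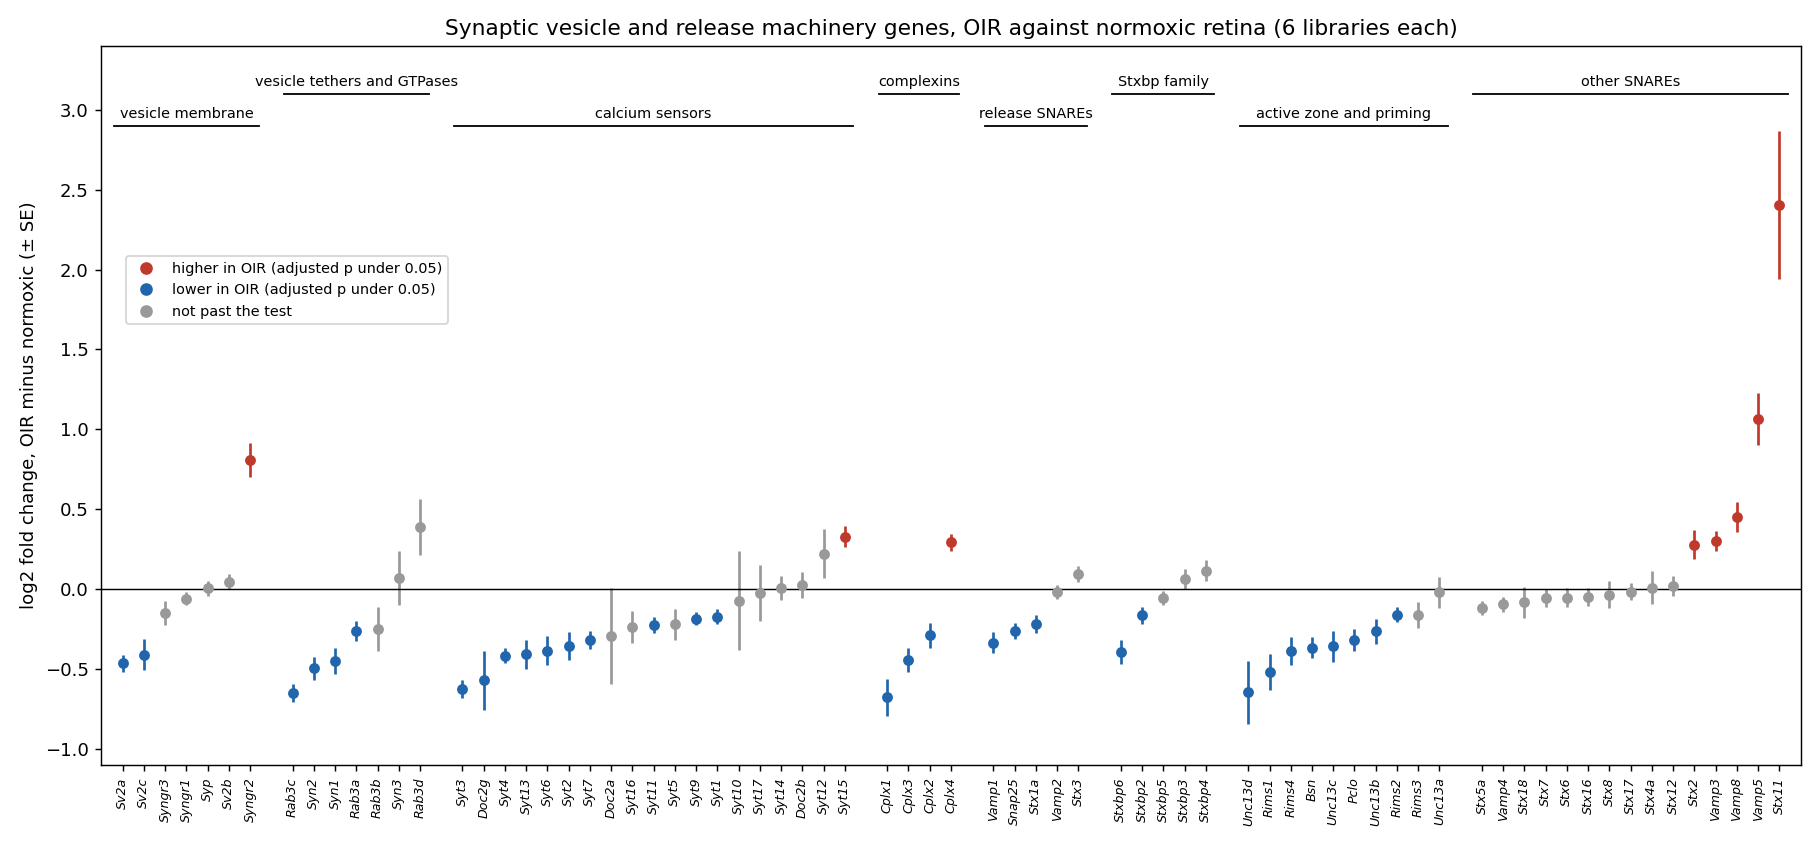
Log2 fold change (OIR minus normoxic, ± SE) of 72 of the 74 members, grouped by role along the horizontal axis. Blue points mark members that were lower, red points the 8 that were higher and grey points those that did not pass edgeR's test.

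Complexins, small proteins that bind the assembled SNARE complex, were called in 4 of 4 members, of which 3 fell and 1 rose. Of all tested genes 31.0% were called. Cplx1 (chromosome 5, 108666420 to 108697890 in build GRCm39), a complexin of conventional synapses, had 33.5 FPKM in the lowest, 40.0 in the median and 49.5 in the highest OIR library, against 52.4, 66.3 and 81.9 FPKM in normoxic libraries. Its groups did not overlap, and the log2 fold change was -0.68 ± 0.12 (SE, n = 6 in each group, edgeR adjusted p = 1.9e-04), the most negative of all members. Cplx3 (chromosome 9, 57507275 to 57513564), found in ribbon terminals of cones and rod bipolar cells and in some amacrine cells, had 115, 136 and 150 FPKM in OIR libraries, against 168, 183 and 204 FPKM in normoxic libraries. It fell by 0.44 ± 0.08 on the log2 scale (edgeR adjusted p = 1.9e-04). Cplx4 (chromosome 18, 66088793 to 66103308), the complexin of rod terminals, moved the other way. Its lowest, median and highest values were 202, 230 and 244 FPKM in OIR libraries and 179, 185 and 192 FPKM in normoxic libraries, so that each OIR library lay above each normoxic one (log2 fold change 0.29 ± 0.05, edgeR adjusted p = 3.9e-04). Cplx2 fell by 0.29 ± 0.08, with 27.9 to 39.6 FPKM in OIR and 38.0 to 43.1 FPKM in normoxic libraries, which overlapped (edgeR adjusted p = 0.00922).

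**Figure D2:**
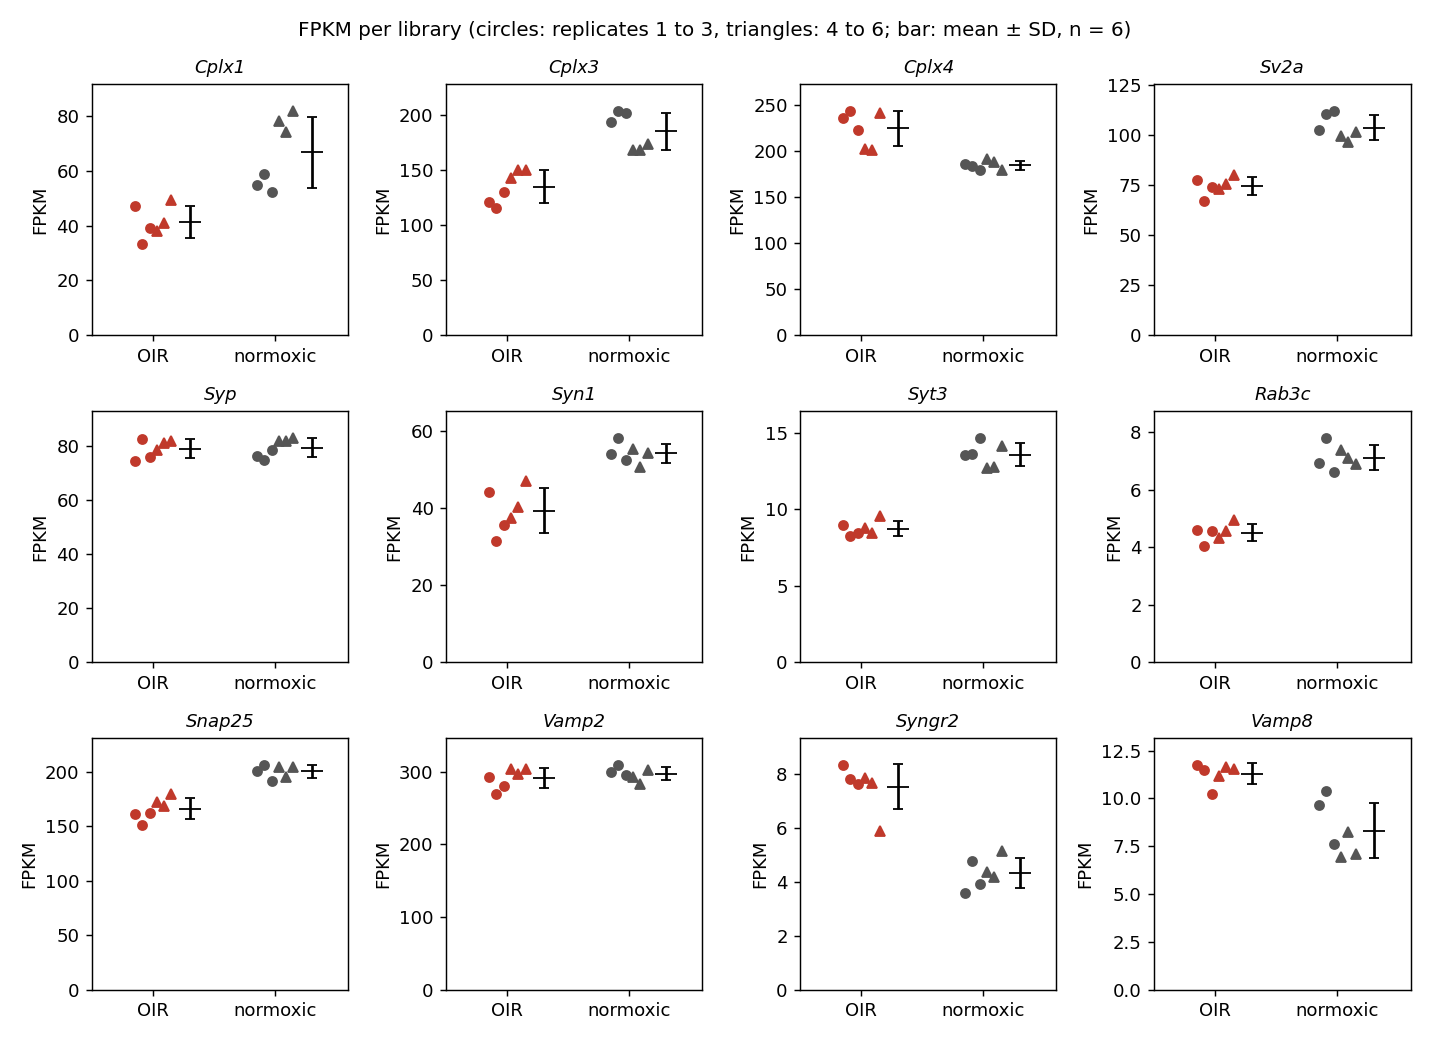
FPKM of 12 members in each library, with OIR libraries (red) left of normoxic libraries (grey) and the mean ± SD beside them. Cplx1, Cplx3, Sv2a, Syn1, Syt3, Rab3c and Snap25 lie lower in OIR with no overlap, Cplx4 and Syngr2 lie higher with no overlap, Vamp8 is higher with overlap, and Syp and Vamp2 did not pass the test.

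Stretches of 250 bases upstream of annotated starts are shown for Cplx1 and Cplx3, the complexins with the most negative log2 fold changes, and for Syn1, whose upstream region has been used widely to drive transgenes in neurons. They come from RefSeq on build GRCm38.p6, which is not the build of the count table, and run 5′ to 3′ on the minus strand, at chr5:108550028-108550277 for Cplx1, chr9:57606282-57606531 for Cplx3 and chrX:20920919-20921168 for Syn1. Capitals mark ACGTG in Cplx1, the core that hypoxia-inducible factors bind, CACGTG in Cplx3, the E-box palindrome that contains this core on both strands, and TTCAGCACC and TGACGTCA in Syn1, the start of the element bound by the neuronal repressor REST and the cyclic AMP response element.
Cplx1: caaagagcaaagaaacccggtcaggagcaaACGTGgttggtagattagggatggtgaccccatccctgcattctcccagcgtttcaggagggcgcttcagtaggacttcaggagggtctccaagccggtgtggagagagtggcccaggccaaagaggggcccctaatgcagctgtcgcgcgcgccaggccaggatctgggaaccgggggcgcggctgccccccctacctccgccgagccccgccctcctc
Cplx3: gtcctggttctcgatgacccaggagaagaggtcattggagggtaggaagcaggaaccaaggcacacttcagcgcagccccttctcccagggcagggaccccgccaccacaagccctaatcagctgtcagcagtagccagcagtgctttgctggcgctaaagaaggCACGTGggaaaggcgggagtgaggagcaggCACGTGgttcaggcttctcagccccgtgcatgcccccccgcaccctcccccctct
Syn1: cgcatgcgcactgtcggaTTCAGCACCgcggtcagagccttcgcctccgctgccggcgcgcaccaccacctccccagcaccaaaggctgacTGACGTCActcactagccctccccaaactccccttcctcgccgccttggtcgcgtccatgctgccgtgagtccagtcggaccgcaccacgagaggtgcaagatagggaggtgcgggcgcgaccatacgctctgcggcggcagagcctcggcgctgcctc
Cplx1 held ACGTG once, at -220 from the start, and Cplx3 held CACGTG at -85 and -55. In Syn1, TTCAGCACC began at -232 and TGACGTCA at -159. Windows were found for 55 of the 74 members, by symbol, and both strands were searched. ACGTG occurred in 11 of these 55 (20%) and in 18.5% of 27025 genes with a window. It was present in 6 of the 25 matched members that fell (Cplx1, Cplx3, Rims1, Stxbp2, Syt6 and Unc13b), in 0 of the 6 that rose and in 5 of the 24 others. CACGTG occurred in 8 of 55 members (14.5%) against 6.86% of all genes, TGACGTCA in 2 of 55 against 1.77%, and TTCAGCACC in 1 of 55 against 0.348%. A match describes letters in this window and not a site in use.

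Vesicle membrane proteins included some of the most abundant members. Sv2a, a glycoprotein of synaptic vesicles and the target of the anti-seizure drug levetiracetam (chromosome 3, 96088467 to 96102837), had 67.1 FPKM in the lowest, 74.9 in the median and 80.4 in the highest OIR library, against 96.5, 102 and 112 FPKM in normoxic libraries. The groups lay far apart relative to their spread, with a log2 fold change of -0.46 ± 0.05 (edgeR adjusted p = 2.9e-06). Sv2c, a related form, fell by 0.41 ± 0.10 (edgeR adjusted p = 0.00287). Sv2b, the third form, which is the main SV2 of photoreceptors, had a log2 fold change of 0.05 ± 0.05 and did not pass (edgeR adjusted p = 0.491). Syp, which encodes synaptophysin, the most used marker of synaptic vesicles, had 74.4, 79.6 and 82.3 FPKM in OIR libraries and 74.6, 80.0 and 82.9 FPKM in normoxic libraries. Its ranges lay nearly on top of each other (log2 fold change 0.00 ± 0.05, edgeR adjusted p = 0.959). Among the synaptogyrins, membrane-spanning vesicle proteins related to synaptophysin, the neuronal forms Syngr1 (-0.06 ± 0.04) and Syngr3 (-0.15 ± 0.07) did not pass. Syngr2 (chromosome 11, 117700494 to 117705109), the form of non-neuronal cells, rose 1.75-fold, with 5.90, 7.75 and 8.35 FPKM in OIR libraries against 3.59, 4.27 and 5.15 FPKM in normoxic libraries (edgeR adjusted p = 1.2e-05). In all, 2 of 7 vesicle membrane members fell, 1 rose and 4 did not pass (42.9% called against 31.0% of all tested genes).

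Synapsins, which tether vesicles in the reserve pool, and Rab3 GTPases, which ride on vesicles and bind RIM proteins, fell in 4 of 7 members and rose in none. The share called was 57.1%, against 31.0% of all tested genes. Syn1 (chromosome X, 20726750 to 20787243) had 31.4, 38.9 and 47.1 FPKM in OIR libraries against 50.7, 54.1 and 58.2 FPKM in normoxic libraries, and fell by 0.45 ± 0.08 on the log2 scale (edgeR adjusted p = 3.0e-04). Syn2 fell by 0.50 ± 0.07, with 4.25 to 5.77 FPKM in OIR and 6.89 to 7.90 FPKM in normoxic libraries (edgeR adjusted p = 4.2e-05). Syn3 was at 0.292 to 0.415 FPKM in OIR and 0.241 to 0.458 FPKM in normoxic libraries and did not pass. Rab3c (chromosome 13, 110190721 to 110417530) had the smallest adjusted p of all members, with 4.05, 4.56 and 4.93 FPKM in OIR libraries against 6.60, 7.02 and 7.80 FPKM in normoxic libraries. It fell by 0.65 ± 0.06 (edgeR adjusted p = 1.0e-07). The most abundant GTPase of this group, Rab3a, had 141, 173 and 192 FPKM in OIR libraries and 201, 207 and 213 FPKM in normoxic libraries, without overlap (log2 fold change -0.26 ± 0.06, edgeR adjusted p = 0.00284). Rab3b (-0.25 ± 0.14) and Rab3d (0.39 ± 0.17) did not pass.

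The synaptotagmins and Doc2 proteins, a class that holds the calcium sensors but also forms that do not bind calcium, fell in 10 of 19 members and rose in 1. The share called was 57.9%, against 31.0% of all tested genes. Syt1, the fast sensor of most central synapses, was the most abundant, with 101, 107 and 115 FPKM in OIR libraries and 112, 122 and 128 FPKM in normoxic libraries. These ranges overlapped, and its log2 fold change was -0.17 ± 0.05 (edgeR adjusted p = 0.00888). Syt3, a sensor of high calcium affinity (chromosome 7, 44033526 to 44049611), had 8.24, 8.60 and 9.57 FPKM in OIR libraries against 12.7, 13.6 and 14.7 FPKM in normoxic libraries. This was the most negative change in this class, -0.63 ± 0.06, with groups clearly apart (edgeR adjusted p = 2.3e-07). Syt4, a synaptotagmin of dense-core and other secretory vesicles, fell by 0.42 ± 0.05, with 20.8 to 23.5 FPKM in OIR and 28.5 to 30.5 FPKM in normoxic libraries (edgeR adjusted p = 1.4e-06). Syt7, the sensor of slow release, fell by 0.32 ± 0.06 (edgeR adjusted p = 2.3e-04), and Syt9, another fast sensor, by 0.19 ± 0.04. The fast sensor Syt2 and the synaptotagmin Syt6 fell by 0.36 and 0.39. Syt11 and Syt13, which do not bind calcium, fell by 0.23 and 0.41. Syt11 was the second most abundant member of the class. It had 29.1, 30.1 and 34.6 FPKM in OIR and 34.3, 36.5 and 38.2 FPKM in normoxic libraries. Doc2g, the Doc2 form without calcium binding, had 1.29, 1.95 and 2.99 FPKM in OIR libraries against 1.94, 3.13 and 3.76 FPKM in normoxic libraries. Its log2 fold change of -0.57 ± 0.18 (edgeR adjusted p = 0.0236) did not pass without OIR replicate 1, 2 or 6 or without normoxic replicate 2 or 3, at adjusted p of 0.0506 to 0.0579. Syt15 was the 1 member of this class that rose, by 0.33 ± 0.07 (edgeR adjusted p = 9.8e-04). It had 3.95, 4.13 and 4.40 FPKM in OIR libraries, above 3.19, 3.25 and 3.80 FPKM in normoxic libraries. The 8 that did not pass were Syt5, Syt10, Syt12, Syt14, Syt16, Syt17, Doc2a and Doc2b.

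The 6 SNAREs of neuronal release parted into 4 that fell and 2 that did not pass (66.7% called against 31.0% of all tested genes). Snap25 (chromosome 2, 136555373 to 136624348), the plasma membrane SNARE of nearly all neurons, had 152, 166 and 180 FPKM in OIR libraries against 191, 203 and 207 FPKM in normoxic libraries. The groups did not overlap, and it fell by 0.26 ± 0.05 (edgeR adjusted p = 4.7e-04). Stx1a fell by 0.22 ± 0.06 and Vamp1, the less abundant vesicle SNARE, by 0.34 ± 0.07. Vamp2, the vesicle SNARE with the highest level of all members, had 270, 295 and 304 FPKM in OIR libraries and 283, 298 and 310 FPKM in normoxic libraries, which overlapped almost fully (log2 fold change -0.02 ± 0.05, edgeR adjusted p = 0.792). Stx3, the syntaxin of ribbon synapses, had 162, 165 and 171 FPKM in OIR libraries and 141, 157 and 167 FPKM in normoxic libraries. At 0.10 ± 0.05 it did not pass (edgeR adjusted p = 0.156).

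Syntaxin-binding proteins were called in 2 of 6 members, both lower. This is 33.3%, near the 31.0% of all tested genes that were called. Stxbp6, which encodes amisyn, a syntaxin-binding protein that competes with VAMP, fell by 0.39 ± 0.08, with 2.37 to 2.98 FPKM in OIR and 3.27 to 3.74 FPKM in normoxic libraries (edgeR adjusted p = 5.5e-04). Stxbp2, or Munc18-2, had 13.9, 15.3 and 17.5 FPKM in OIR and 17.0, 17.3 and 18.4 FPKM in normoxic libraries (log2 fold change -0.17 ± 0.05, edgeR adjusted p = 0.0246). It did not pass without OIR replicate 2, 5 or 6 or normoxic replicate 1 (0.0504 to 0.0606). Stxbp3, Stxbp4 and the tomosyn gene Stxbp5 had log2 fold changes of 0.06, 0.11 and -0.06 and did not pass.

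Active zone scaffolds and priming factors fell in 8 of 10 members, and none rose (80% called against 31.0% of all tested genes). Bsn and Pclo, the giant scaffolds bassoon and piccolo, which anchor ribbons and organise active zones, fell by 0.37 ± 0.07 and 0.32 ± 0.07 (edgeR adjusted p = 3.2e-04 and 0.00142). Bsn lay within 4.88 to 5.11 FPKM in OIR libraries and within 5.53 to 7.53 FPKM in normoxic libraries. Pclo ranged over 3.72 to 4.23 FPKM in OIR and 4.36 to 6.04 FPKM in normoxic libraries, so neither gene overlapped between groups. Rims1, a scaffold that ties vesicles to calcium channels, had 7.73, 11.6 and 12.1 FPKM in OIR libraries against 12.95, 15.3 and 17.1 FPKM in normoxic libraries (log2 fold change -0.52 ± 0.11, edgeR adjusted p = 0.00139). Rims2, the main RIM of photoreceptor ribbons, changed less, with 17.2, 18.4 and 19.6 FPKM in OIR and 19.5, 20.4 and 22.1 FPKM in normoxic libraries (-0.16 ± 0.05, edgeR adjusted p = 0.0108). The short form Rims4 fell by 0.39 ± 0.09, and Rims3 (-0.16 ± 0.08) did not pass. Of the Munc13 priming factors, Unc13b, the most abundant here, had 13.4, 15.9 and 16.3 FPKM in OIR and 15.6, 18.8 and 21.8 FPKM in normoxic libraries (-0.27 ± 0.08, edgeR adjusted p = 0.0156). Unc13c fell by 0.36 ± 0.10, while Unc13a, the main form of conventional synapses in the brain, did not pass (-0.02 ± 0.10, edgeR adjusted p = 0.906). Unc13d, which primes granules of immune cells, had 0.908, 1.14 and 1.36 FPKM in OIR and 1.20, 1.71 and 2.55 FPKM in normoxic libraries (-0.65 ± 0.20, edgeR adjusted p = 0.0179). It did not pass without normoxic replicate 1 or 2 (0.0513 and 0.0524).

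The remaining SNAREs serve other membrane traffic, many of them between endosomes, Golgi and plasma membrane. Of 15, 5 rose, 0 fell and 10 did not pass. The share called, 33.3%, was near the 31.0% of all tested genes, of which 16.2% were higher. Stx11, a syntaxin of immune cells, had the highest log2 fold change of all members, at a very low level. It reached the count minimum only through its OIR libraries, so its rise cannot be taken apart from its selection. It had 0.170, 0.274 and 0.506 FPKM in OIR libraries against 0, 0.0443 and 0.137 FPKM in normoxic libraries, with 141 counts summed over the OIR and 26 over the normoxic group (log2 fold change 2.41 ± 0.46, edgeR adjusted p = 5.8e-04). Vamp5 (chromosome 6, 72345777 to 72357451), known from muscle, rose 2.09-fold, with 1.18, 1.43 and 2.00 FPKM in OIR libraries above 0.648, 0.723 and 0.830 FPKM in normoxic libraries (edgeR adjusted p = 5.9e-05). Vamp8, an endosomal VAMP of leukocytes and secretory cells (chromosome 6, 72362206 to 72367686), rose 1.37-fold, with 10.2, 11.5 and 11.7 FPKM in OIR against 6.92, 7.91 and 10.4 FPKM in normoxic libraries. The lowest OIR value lay just under the highest normoxic one (edgeR adjusted p = 0.00128). Vamp3, the VAMP of recycling endosomes, rose 1.23-fold, with 19.3, 24.4 and 26.4 FPKM in OIR and 17.8, 19.5 and 20.6 FPKM in normoxic libraries (edgeR adjusted p = 0.00113). Stx2, a syntaxin of the plasma membrane, rose 1.21-fold, with 3.92, 5.49 and 5.79 FPKM in OIR and 3.78, 4.23 and 4.90 FPKM in normoxic libraries (edgeR adjusted p = 0.0282). That call was lost without OIR replicate 1, 2, 3 or 4 or normoxic replicate 4 or 6 (0.0591 to 0.0733). The 2 most abundant genes of this group did not pass. They were the endosomal syntaxin Stx12, with 31.8, 34.2 and 35.8 FPKM in OIR and 29.4, 34.9 and 37.4 FPKM in normoxic libraries, and the Golgi syntaxin Stx16, with 22.4, 25.6 and 27.6 FPKM in OIR and 24.4, 26.2 and 28.6 FPKM in normoxic libraries. The other 8, Stx4a, Stx5a, Stx6, Stx7, Stx8, Stx17, Stx18 and Vamp4, had log2 fold changes between -0.12 and 0.01. Beside these genes, markers of microglia and macrophages rose in 5 of 5, with sums of 35.8 to 51.6 FPKM in OIR and 13.2 to 17.5 FPKM in normoxic libraries. Endothelial markers rose in 4 of 4, with sums of 36.8 to 50.8 FPKM in OIR and 20.8 to 27.1 FPKM in normoxic libraries. Within each set 5 of 5 microglia and macrophage markers rose, and 4 and 3 of 4 endothelial markers. No marker of either list was at 0 in all libraries, and their part in these results was not tested.

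Markers of the neurons that carry these synapses moved too, and in bulk retina fewer cells of a type and less RNA per cell cannot be told apart. Amacrine markers fell in 6 of 6 genes, and their summed level was 55.7 to 70.0 FPKM in OIR libraries against 82.3 to 107 FPKM in normoxic libraries. Within replicates 1 to 3, 6 of 6 passed, and within 4 to 6, 3 of 6. Ganglion cell markers fell in 3 of 6, namely Nefl, Slc17a6 and Thy1. Rbpms, Pou4f1 and Pou4f2 did not pass (edgeR adjusted p = 0.964, 0.571 and 0.0972). The sums were 120 to 167 FPKM in OIR and 182 to 234 FPKM in normoxic libraries. Nefl alone made up 67.6 to 89.5 FPKM in OIR and 104 to 137 FPKM in normoxic libraries. Within replicates 1 to 3, 3 fell and Rbpms rose (0.31), and within 4 to 6, 5 fell. Markers listed for cone bipolar cells, Grm6, Vsx1, Cabp5 and Grik1, fell in 4 of 4, and in 4 and 3 of 4 within the sets. Their sums were 79.6 to 94.8 FPKM in OIR and 121 to 150 FPKM in normoxic libraries. Grm6 and Cabp5 are found in rod bipolar cells too, so this list is not particular to cone bipolar cells. Grm6 alone had 28.9 to 36.4 FPKM in OIR and 51.0 to 68.4 FPKM in normoxic libraries. Rod bipolar markers fell in 2 of 3 (40.4 to 47.6 FPKM in OIR, 47.7 to 57.4 FPKM in normoxic libraries), and in 2 and 1 of 3 within the sets. Of 3 tested horizontal cell markers 1 fell, Calb1, while Lhx1 and Onecut2 did not pass, and 3 and 1 fell within the sets. Sums over the 4 listed were 20.1 to 28.0 FPKM in OIR and 32.2 to 37.1 FPKM in normoxic libraries. Most of this was Calb1, at 17.9 to 25.3 FPKM in OIR and 29.2 to 34.0 FPKM in normoxic libraries. Rod markers summed to 7944 to 8862 FPKM in OIR and 7340 to 8158 FPKM in normoxic libraries, with 1 of 6 higher and 1 lower. Within replicates 1 to 3, 3 rod markers were higher and 1 lower, and within 4 to 6, 2 were higher. Cone markers went opposite ways in the sets. Within replicates 1 to 3, 4 of 5 were lower (Arr3, Gnat2, Opn1mw and Opn1sw), with sums of 410 to 493 FPKM in OIR and 671 to 715 FPKM in normoxic libraries. In replicates 4 to 6, 3 of 5 were higher (Opn1mw, Opn1sw and Pde6h), with sums of 477 to 563 FPKM in OIR and 402 to 444 FPKM in normoxic libraries. Over all 12 libraries only Arr3 passed, and it was lower. Muller glia markers fell in 3 of 4 and rose in 1, with sums of 454 to 622 FPKM in OIR and 613 to 711 FPKM in normoxic libraries, while within replicates 4 to 6, 2 fell and none rose. No marker was at 0 in all libraries. The part of these shifts in the members' changes was not tested.

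Members of conventional synapses, among them Cplx1, Cplx2, Stx1a, Syn1 and Syn2, fell in 6 of 6 cases, with a median log2 fold change of -0.42. Members of ribbon synapses (Cplx3, Cplx4 and Stx3) gave 1 lower, 1 higher and 1 that did not pass, with a median of 0.10. Members of immune granule fusion gave 2 higher (Stx11 and Vamp8) and 2 lower (Unc13d and Stxbp2). Stx11 is a member only through its OIR counts, and both lower calls were lost when certain single libraries were left out. Of all tested genes, 14.8% were lower and 16.2% higher. The difference between these lists was not tested. Cplx3 is also found in some amacrine cells, and Sv2b, Rims2, Bsn and Pclo were in none of the lists. Nor were Unc13a, Vamp2 and Syp, which did not pass, or Snap25, Syt1 and Sv2a, which fell. The lists were chosen with earlier results of these data known, so their counts depend on that choice. Within a library, the FPKM ratio of related genes is free of library scaling. Of 7 such ratios computed, 4 are given, chosen after their values were seen and so with no test. The ratio of Cplx4 to Cplx3 was 1.35 in the lowest, 1.66 in the median and 2.13 in the highest OIR library, against 0.893, 1.00 and 1.14 in normoxic libraries. Sv2b reached 0.595, 0.636 and 0.739 of the Sv2a level in OIR libraries and 0.383, 0.463 and 0.517 of it in normoxic libraries. Vamp8 over Vamp1 gave 1.48, 1.75 and 1.94 in OIR and 0.775, 0.986 and 1.17 in normoxic libraries. In these 3 ratios every OIR library lay above every normoxic library. Each of them divides by a gene that fell, so this partly restates the changes given above. Cplx2 over Cplx1 overlapped, at 0.720 to 0.892 in OIR and 0.526 to 0.726 in normoxic libraries.

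**Figure D3:**
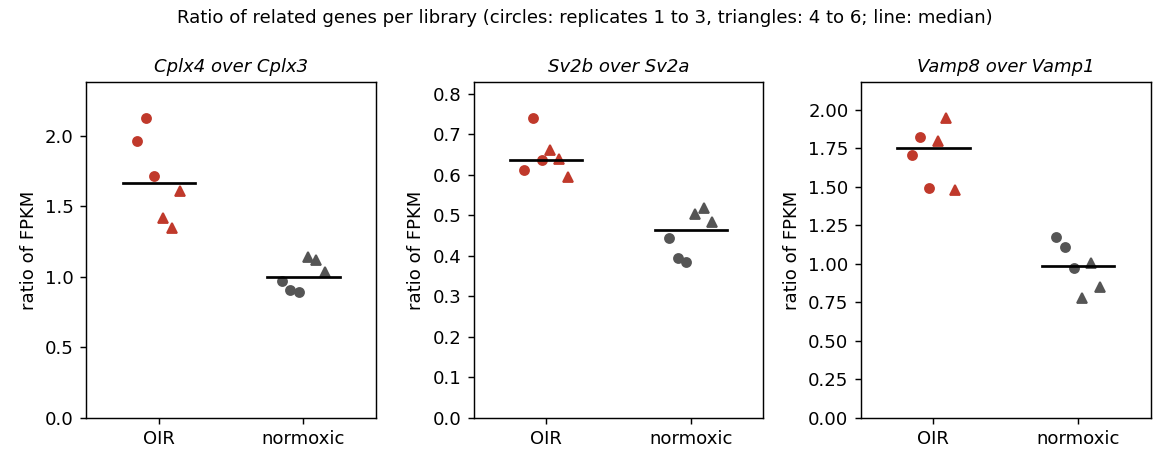
Ratio of FPKM of 2 related genes in each library, with OIR (red) left of normoxic (grey), circles for replicates 1 to 3, triangles for 4 to 6 and a line at the median. In each of the 3 panels the OIR libraries lie above the normoxic libraries, for Cplx4 over Cplx3 at 1.35 to 2.13 against 0.893 to 1.14.

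Of 29 members that the table annotates to the synaptic vesicle, 13 fell and 1 rose (median log2 fold change -0.15), and of the 45 without this term 20 fell and 7 rose (median -0.16). Among 25 members with a mean of at least 20 FPKM, 12 fell and 2 rose, and among the 49 below it 21 fell and 6 rose. The share called was 48.3% with the term, 60.0% without it, 56.0% at 20 FPKM or more and 55.1% below. Of all tested genes 31.0% were called, 14.8% lower and 16.2% higher. Outside the members, the table annotates 130 other tested genes to the synaptic vesicle, of which 45 fell and 13 rose (44.6% called, median -0.09).

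A further list of vesicle cycle genes, with transmitter loaders, SNARE recycling factors, active zone partners and endocytic proteins, had 71 tested genes. Of these 32 fell, 2 rose and 37 did not pass (47.9% called against 31.0% of all tested genes, median -0.15). The smallest adjusted p of those that fell belonged to Rph3a, Cadps and Synpr. Rph3a, which encodes the Rab3 effector rabphilin, had 18.2, 19.6 and 24.6 FPKM in OIR libraries against 37.0, 41.4 and 46.8 FPKM in normoxic libraries. At -0.99 ± 0.08 its log2 fold change was more negative than that of any member (edgeR adjusted p = 3.4e-08). Cadps, a priming factor of dense-core vesicles, fell by 0.54 ± 0.07, and Synpr, a relative of synaptophysin, by 0.40 ± 0.06. Lin7b, a scaffold gene (0.91 ± 0.20), and Dnajc5, the vesicle chaperone gene (0.18 ± 0.04), were the 2 that rose (edgeR adjusted p = 0.00157 and 0.00207). Of 6 vesicular transporters 4 fell, namely the glutamate loaders Slc17a6 (-0.72 ± 0.13) and Slc17a8 (-0.54 ± 0.15), the acetylcholine loader Slc18a3 (-0.88 ± 0.17) and the loader of inhibitory amino acids Slc32a1 (-0.42 ± 0.08). The monoamine loader Slc18a2 did not pass. Within replicates 1 to 3 and 4 to 6 the log2 fold changes were -0.82 and -0.17 for Slc17a8, -0.71 and -0.13 for Slc32a1, -1.33 and -0.50 for Slc18a3, and -0.40 and -0.98 for Slc17a6. Slc17a8 and Slc32a1 did not pass within 4 to 6 (edgeR adjusted p = 0.41 and 0.187). Slc17a7, the glutamate loader of photoreceptors and bipolar cells, had 292, 309 and 320 FPKM in OIR and 289, 311 and 322 FPKM in normoxic libraries and did not pass (0.02 ± 0.05, edgeR adjusted p = 0.839). Slc17a6 and Slc32a1 also serve as cell markers above.

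Within replicates 1 to 3, 35 members fell and 12 rose (63.5% called against 39.0% of all genes tested there, where 18.6% were lower and 20.3% higher). Within replicates 4 to 6, 25 fell and 6 rose (41.9% against 20%, where 8.36% were lower and 11.6% higher). The 33 lower and 8 higher calls all had the same direction in both sets, and 27 of the 41 passed in both. The 12 that passed within replicates 1 to 3 only were Doc2g, Rab3a, Rims2, Stx2, Stxbp2, Syt2, Syt11, Syt13, Syt15, Unc13b, Unc13c and Unc13d, and the 2 that passed within 4 to 6 only were Stx1a and Syt6. The effect itself differed between the sets in 9 of 74 members (interaction in edgeR over all tested genes, chosen after the sets were seen, 12.2% against 8.21% of all tested genes). These shares are close and their difference was not tested, so what follows describes single genes. Cplx3 had the smallest adjusted p of these, with a log2 fold change of -0.71 within replicates 1 to 3 and -0.18 within 4 to 6 (interaction 0.53 ± 0.07, edgeR adjusted p = 3.8e-05). It had 115 to 130 FPKM in OIR against 193 to 204 FPKM in normoxic replicates 1 to 3, and 143 to 150 FPKM in OIR against 168 to 173 FPKM in normoxic replicates 4 to 6. Doc2b, a sensor of spontaneous release, was called higher within replicates 1 to 3 (0.27, edgeR adjusted p = 3.0e-04) and lower within 4 to 6 (-0.18, edgeR adjusted p = 0.0237). Its OIR values of 28.1 to 31.0 FPKM lay between normoxic replicates 1 to 3, at 24.2 to 27.1 FPKM, and normoxic replicates 4 to 6, at 33.4 to 34.4 FPKM. The pooled value of Doc2b, 0.02 ± 0.08, lies between opposite differences. Bsn had -0.52 within replicates 1 to 3 and -0.20 within 4 to 6. Rab3d had 0.87, called higher, and -0.05, which did not pass (edgeR adjusted p = 0.00138 and 0.908). The others included Unc13a, Unc13b, Unc13c and Unc13d. All 4 Munc13 genes were among the 9. Unc13a and Unc13c lay close to the threshold (edgeR interaction adjusted p = 0.049 and 0.046), as did Rab3d (0.043). Unc13d had -1.02 within 1 to 3 and -0.11 within 4 to 6, Unc13c -0.57 and -0.12, Unc13b -0.40 and -0.10, and Unc13a -0.12 and 0.11. Unc13b, Unc13c and Unc13d did not pass within 4 to 6 (edgeR adjusted p = 0.265, 0.52 and 0.743).

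**Figure D4:**
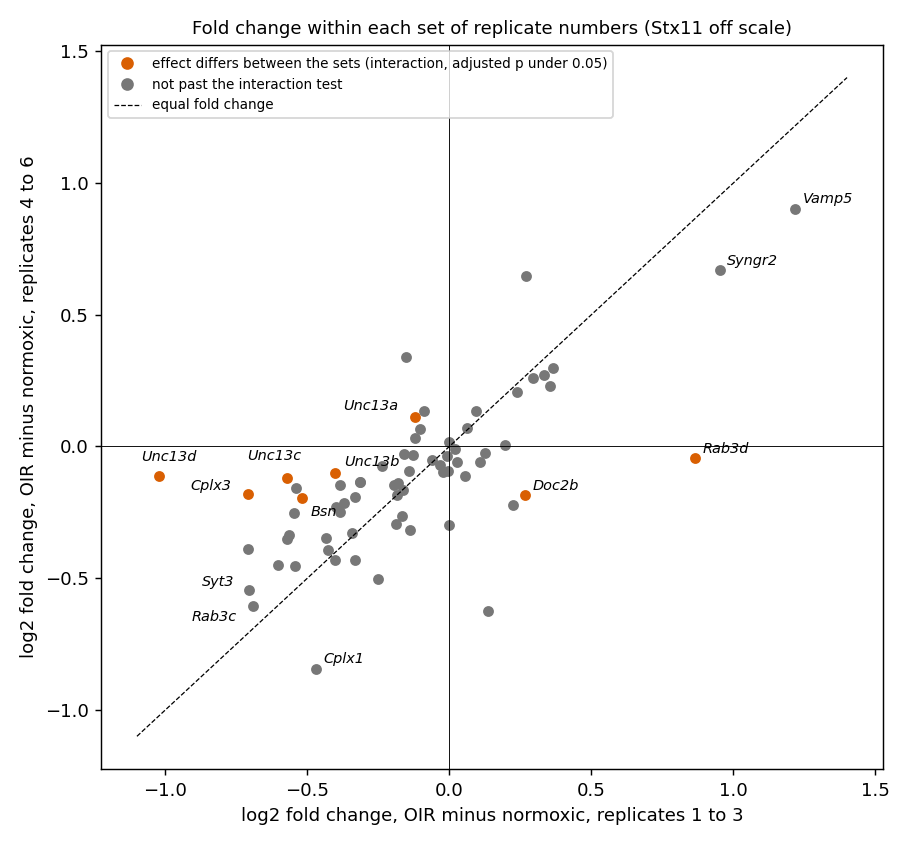
Log2 fold change (OIR minus normoxic) of 72 of the 74 members within replicates 1 to 3 (horizontal) and 4 to 6 (vertical), with the dashed line at equality. Of these 72, Stx11 (2.07 and 3.26) lies beyond the axes and is not drawn. Orange points are members whose effect differed between the sets, among them Cplx3, Doc2b and the 4 Munc13 genes.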

How the data were processed

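Poly-A RNA of 12 retina libraries was sequenced. Trimmomatic, HISAT2 version 2.0.5, HTSeq and build GRCm39 are listed in the submitters' processing notes, which give no roles. Annotation release and strand setting: not given in the sources used here. Whole-number counts and FPKM of each gene come in a single deposited table, per the file headers.

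Members and lists were chosen with earlier results of these data known. Counts of all genes were tested with edgeR version 4.0.16 in R version 4.3.3, using filterByExpr (minimum count 10, total 15), TMM scaling and quasi-likelihood tests, and p-values were adjusted by Benjamini-Hochberg (threshold 0.05). All 74 members were tested. The procedure was also tested on simulated data. FPKM levels are as deposited. Counts cover all 74 members, of which 2 are not reported here by name or in the figures.

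Members described in full were the 8 highest and 8 lowest log2 fold changes among called members with a mean of at least 1 FPKM in a group (7 such members were higher), and the 2 most abundant per role. Others, such as Stx11, were chosen after their values were seen. Of the other vesicle cycle genes, the 3 smallest adjusted p per direction were named (2 rose), and the transporters besides.

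Alternatives were other scalings and filters, DESeq2 version 1.42.0, limma version 3.58.1 on log2(FPKM + 1 or 0.1), blocks, each set of replicate numbers and leaving out each library. No libraries were merged, since every pair of replicates differed beyond sampling noise. Depth was similar across libraries, and low genes such as Stx11 and Doc2a are the least precise.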

Additional observations from a re-analysis of the deposited data

Results flagged for a closer look

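In each group of 6 libraries, the highest or lowest FPKM was compared with its nearest neighbour, and a gap above Dixon's 95% limit for 6 values set a library apart. This happened in 5 of 148 groups, where chance gives about 1 in 20, and each time in a library with replicate number 6. Syngr2 had 5.90 FPKM in OIR replicate 6, below the next value of 7.64. Stxbp5 had 7.61 FPKM there, below 8.35, and Syt16 had 1.66 FPKM there, above 1.36. In normoxic replicate 6, Syn2 had 7.90 FPKM, above 7.26, and Syt15 had 3.80 FPKM, above 3.29. Without OIR replicate 6 the log2 fold change of Syngr2 was 0.86. Without normoxic replicate 6 it was -0.47 for Syn2 and 0.37 for Syt15, and all 3 stayed past edgeR's test (adjusted p = 4.0e-06, 1.1e-04 and 3.9e-04).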

How the results depend on the processing

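Across the scalings, filters, tests, blocks and subsets tried, 25 to 36 members were called lower and 6 to 12 higher, and no member called with all libraries was called in the opposite direction. Leaving out each library in turn gave 31 to 34 lower and 7 to 8 higher members, with medians of -0.17 to -0.14. The members' median was -0.13 within replicates 4 to 6. For other vesicle cycle genes, higher calls numbered 6 within replicates 1 to 3 and 2 to 4 with 1 library left out (4 without normoxic replicate 5). Within replicates 4 to 6, lower calls over all genes numbered 1536, against 3456 within replicates 1 to 3 and 2704 with all libraries. Same-numbered libraries showed little shared deviation (correlations of -0.03 to 0.13, over 0.1 in 2 of 6, and best with their own number in 2 of 6). No pairing by number was seen, but such correlations cannot exclude one, and the labels name none. With a replicate block, 34 members were lower and 8 higher.

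Of the 29 members that the naming rule chose, 9 lost their call under at least 1 alternative. Within replicates 4 to 6 these were Doc2g, Rab3a, Rims2, Stx2, Stxbp2, Syt11, Syt15, Unc13b and Unc13d (adjusted p 0.0619 to 0.743), and under limma Stx2 and Unc13d. The sign of 4 uncalled members turned. Syp had -0.0055 with library totals, -0.0054 and -0.0055 with limma on log2(FPKM + 1) and log2(FPKM + 0.1), -0.0091 within replicates 4 to 6 and -0.015 to 0.021 with 1 library left out. Within replicates 4 to 6, Vamp2 had 0.065, Stx16 0.032 and Stx12 -0.057. With 1 library left out, Vamp2 ranged over -0.039 to 0.0023 and Stx12 over -0.019 to 0.048. The causes were not tested. Stx11, Doc2a and Syt10, with mean counts of 13.9, 18.7 and 26.6, had the largest SE among the members, 0.30 to 0.46. The part of depth in this was not tested.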
